A study of Homo sapiens with 27 samples.

Results

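The data describe how Compound Kushen Injection (CKI) and 5-fluorouracil (5-FU) combined in their effect on the transcriptome of the established breast adenocarcinoma line MDA-MB-231. The members are the 12 MDA-MB-231 libraries among the 27 RNA-seq libraries of the series, chosen by cell line and agent, and they form 4 groups of 3 libraries. The groups were cells left untreated, cells given CKI (labelled as a dilution of 1 in 20, with 1 mg/ml in the treatment protocol), cells given 5-FU (10 ug/ml in the protocol) and cells given both, all collected after 48 h. The other 15 libraries came from A431 cells and entered only a check of cell identity and 1 alternative fit. All values come from 1 cell line at 1 dose and 1 time, and no vehicle group of this line was analysed here. For each gene the interaction was the CKI difference with 5-FU present minus the CKI difference without it, on the log2 scale. An interaction of 0 means that the fold changes of the single drugs multiply in the combination. The interaction was tested in 13999 genes, those with enough reads among 24566 rows of the count table.

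CKI is an aqueous extract of the roots of Kushen (Sophora flavescens) and Baituling that is given together with chemotherapy in China. 5-FU is a pyrimidine analogue whose metabolites block thymidylate synthase and enter RNA and DNA, so that replicating cells lose thymidine nucleotides and process RNA poorly. A gene can reach the same interaction by different routes: both drugs may move it by themselves and the combination may stop short of the product, or 1 drug may move it and the other may remove that movement. For this reason the levels in all 4 groups stand beside each interaction. In bulk RNA a change in the share of cells in a given state and a change of the level within each cell cannot be told apart.

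Total counts lay between 19871048 and 22809339 per library. Untreated replicate 1 stood apart from the other untreated libraries, with a chi-square per degree of freedom over genes of 70.8 and 81.8 against them, while all other pairs within a group lay between 2.19 and 4.66. Its deviation from the group mean followed GC content (Spearman rho = -0.663 across genes). Untreated replicates 2 and 3, whose deviations partly mirror it in a group of 3, had 0.584 and 0.571. Libraries of other groups followed GC content too: combination replicates 2 and 3 had -0.514 and 0.401, and 5-FU replicate 3 had -0.4. Across 13979 genes the interaction itself had a rho of -0.22 with GC content. List counts without untreated replicate 1 are given after the lists. Markers listed for MDA-MB-231 summed to 3160 to 5530 CPM (reads of a gene scaled to a common library total) in the 12 libraries. TWIST1 was under 1 CPM in each of them, and CDH2 read 0.15, 0.701 and 0.516 CPM untreated. The same list summed to 1520 to 2380 CPM in A431 cells, so it separates the lines less than the next list does. The 19 markers listed for A431 keratinocytes summed to 211 to 396 CPM against 9290 to 12700 in A431 cells, and 7 of the 19 were under 1 CPM in every MDA-MB-231 library.

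A gene was called when its Benjamini-Hochberg adjusted p-value from edgeR's quasi-likelihood test was under 0.05 and its absolute log2 value was over 1, a change of more than 2-fold. The interaction was called in 958 genes (6.84% of those tested), 425 with a positive value (3.04%) and 533 with a negative one (3.81%). By the adjusted p-value alone, 2389 genes were positive (17.1%) and 2007 negative (14.3%). For comparison, CKI alone changed 835 genes compared to untreated (5.96%), 5-FU alone changed 1866 (13.3%) and the combination changed 1266 (9.04%). CKI added to 5-FU changed 1368 genes (9.77%), and 5-FU added to CKI changed 533 (3.81%). Without untreated replicate 1 the interaction was called in 1062 genes, and 84.0% of the 958 were among them.

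5-FU changed 1866 genes in untreated cells and 533 in cells given CKI. Of 842 genes that rose with 5-FU alone, the median difference was 1.33 (log2) without CKI and 0.42 with it, and 105 of them (12.5%) also rose when 5-FU was added to CKI. Of 1024 genes that fell with 5-FU alone, the medians were -1.35 and -0.56, and 189 (18.5%) also fell with CKI present. These genes were selected on the difference without CKI, which by itself draws the other median towards 0. Genes selected the other way around did not show the gap: the 177 genes that rose with 5-FU in CKI-treated cells had medians of 1.22 without CKI and 1.19 with it, and the 356 that fell had medians of -1.09 and -1.19. The 2 differences compared here share no library.

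**Figure D1:**
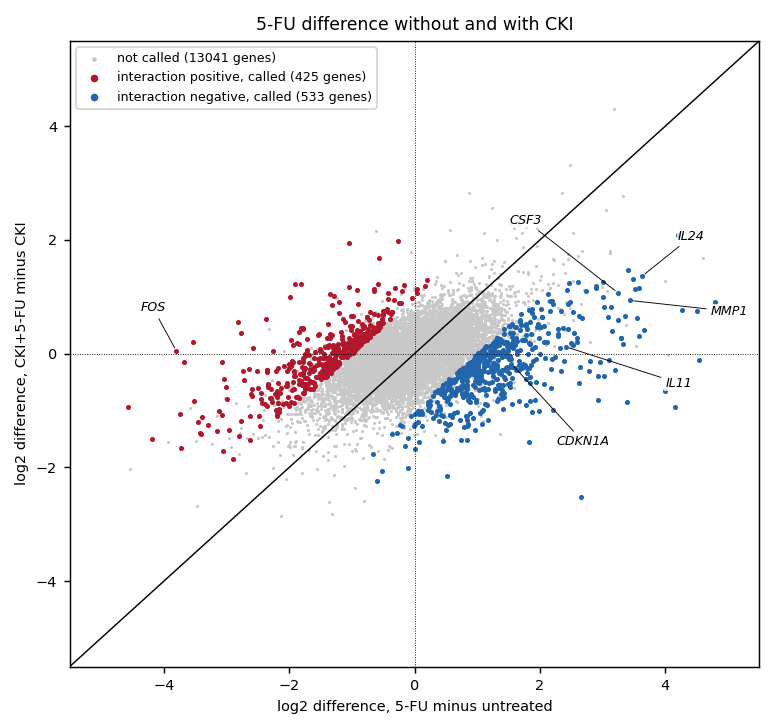
Log2 difference of 5-FU compared to untreated (horizontal axis) and of CKI plus 5-FU compared to CKI (vertical axis) for 13999 genes, each a point. Red marks the 425 genes called with a positive interaction and blue the 533 called with a negative one. The diagonal is where the fold changes of the drugs multiply. Most red points lie left of 0 and most blue points right of 0, with vertical values near the dotted zero line.

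Sorted by the single-drug calls, the interaction genes fell into a few patterns. Of the 958 genes, 703 were called for 1 drug or for both in 1 direction, and in 698 of these (99.3%) the combination was less than additive, that is, the interaction ran against the single-drug change. The largest class was 271 genes that fell with 5-FU alone, of which the combination was called against untreated in 51. It was followed by 225 genes that rose with 5-FU alone, of which the combination was called in 34. Both drugs raised 106 genes and both lowered 38, and the combination was called in 85 and 28 of them. CKI alone raised 42 genes and lowered 16 whose interaction was less than additive. Another 248 genes were called for neither drug and 7 for both drugs in opposite directions. The untreated libraries enter the single-drug differences and the interaction with opposite signs, which by construction favours less than additive, so the share is a description. Without untreated replicate 1 it was 99.3% as well, of a larger set with 827 genes less than additive.

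**Figure D2:**
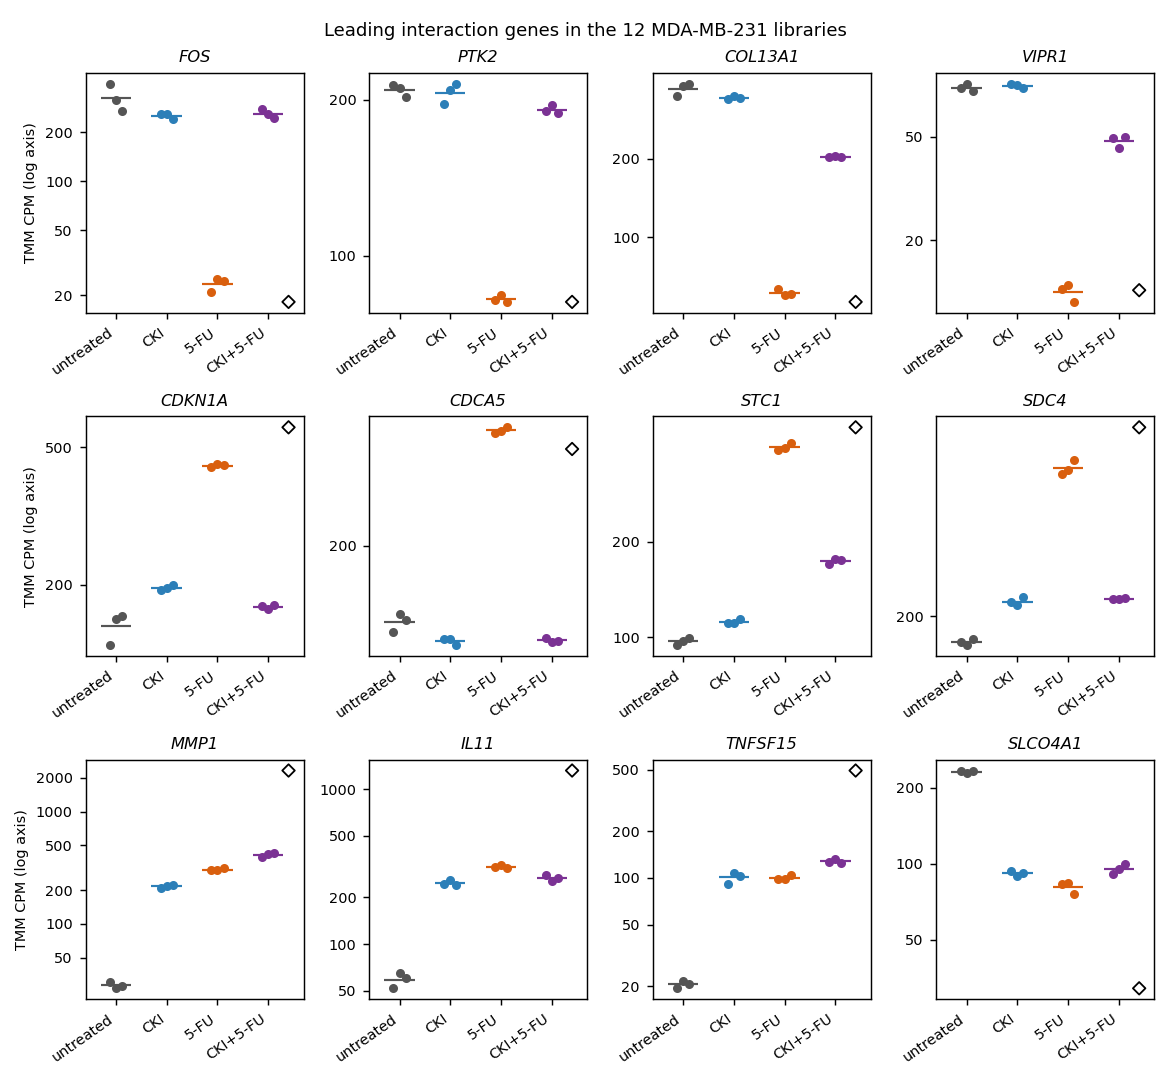
TMM-normalized CPM on a log axis in each of the 12 libraries (points) with the group mean (line) for 12 of the leading genes. The open diamond is the level the combination would have if the fold changes of the single drugs multiplied. In the top row the combination lies above the diamond and most or part of the way back to untreated, in the middle row it lies below the diamond and near untreated or CKI alone, and in the bottom row both drugs moved the gene and the combination stayed near the single-drug levels.

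Genes that 5-FU lowered and that returned most or part of the way in the combination formed the first pattern, with FOS at its head. FOS, a subunit of the AP-1 transcription factor and an immediate early gene (chr14:75745529-75748933 on GRCh37, as are all gene coordinates), had 395, 314 and 271 CPM in the untreated libraries and 258, 257 and 242 with CKI. With 5-FU it had 20.9, 25.1 and 24.4 CPM, and with both drugs 279.7, 258 and 244. The 5-FU libraries lay below all others by more than the whole spread of the rest, and the combination overlapped both the untreated and the CKI libraries. Multiplied fold changes would have put the combination at 18.1 CPM. The interaction was 3.84 (SE 0.17, edgeR's quasi-likelihood test, adjusted p = 1.2e-07). FOSB, a second AP-1 subunit, had means of 55 ± 10.3, 41.5 ± 8.22, 6.66 ± 0.398 and 30.6 ± 9.5 CPM in untreated, CKI, 5-FU and combination libraries (SD, n = 3), with an interaction of 2.6. EGR1, an immediate early zinc finger factor, was not called for 5-FU: it had 140.2, 252 and 289.7 CPM untreated, 202, 207 and 221 with CKI, 201, 199 and 195 with 5-FU and 490.0, 414 and 455 with both. Its combination libraries were above all others, with an interaction of 1.3 (adjusted p = 0.0033), and EGR1 was among the 248 genes called for neither drug by itself.

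Of 36 immediate early and stress transcription factor genes tested, these 3 were called positive and 4 negative, which is 19.4% against 6.84% of all genes, with a median interaction of 0.13 against 0.02 over all genes. The 4 negative genes were feedback and stress regulators: DUSP5, a nuclear phosphatase of ERK (-1.29), DUSP10, a phosphatase of JNK and p38 (-1.13), IER3 (-1.01) and BTG2 (-1.13). DUSP5 had means of 128 ± 12.2 CPM untreated, 265 ± 1.43 with CKI, 289 ± 4.43 with 5-FU and 246 ± 6.34 with both. Thus the list held members of opposite signs. Of its members that were not called, FOSL1 had an interaction of 0.06, FOSL2 of -0.86 and JUN of 0.37. The calls of IER3 and BTG2 were each lost under 1 or more alternatives.

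COL13A1, a transmembrane collagen (chr10:71561636-71724031), read 348, 379 and 386 CPM untreated, 338, 347 and 341 with CKI, 63.2, 59.99 and 60.8 with 5-FU and 203, 204 and 203 with both. Here the combination came only part of the way back and lay below the untreated and CKI libraries, with an interaction of 1.85 (SE 0.076, edgeR's quasi-likelihood test, adjusted p = 5.2e-08). VIPR1, a receptor for vasoactive intestinal peptide (chr3:42530791-42579065), behaved in the same way, with means of 77.1 ± 2.41, 78.4 ± 1.33, 12.6 ± 0.95 and 48.2 ± 2.51 CPM in the order untreated, CKI, 5-FU and both, and an interaction of 1.91.

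The other leading positive genes of this pattern differed in how far the combination was from untreated. PTK2, which encodes focal adhesion kinase (chr8:141667999-142012315), had means of 209 ± 5.67 CPM untreated, 206 ± 9.42 with CKI, 82.5 ± 1.24 with 5-FU and 191 ± 3.67 with both. MBP, the myelin basic protein gene, had 149 ± 3.61, 136 ± 4.66, 46.6 ± 1.41 and 121 ± 0.977 CPM, and DYNC2I1, a subunit of the ciliary dynein-2 motor, had 39.5 ± 0.873, 34.7 ± 0.471, 10.4 ± 0.291 and 27.9 ± 1.07 CPM. In all 3 the 5-FU libraries were below every other library. TMTC4, an endoplasmic reticulum mannosyltransferase, had 21.3 ± 1.37 CPM untreated, 14.2 ± 1.03 with CKI, 2.64 ± 0.0203 with 5-FU and 9.43 ± 0.0562 with both, and here the combination remained called against untreated (-1.17). STEAP3, an endosomal iron reductase, had 95.2 ± 2.34, 66.2 ± 2.01, 32.1 ± 0.718 and 50.1 ± 1.07 CPM. CDH4, a cadherin, had an interaction of 2.28 (SE 0.41), and its untreated libraries were scattered (40.6, 106 and 117 CPM) with replicate 1 the lowest. The interactions of these 6 genes ran from 1.16 to 2.41, and the adjusted p-values from edgeR's quasi-likelihood test from 2.4e-07 to 0.0014.

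Genes that 5-FU raised and that stayed near the untreated or CKI level in the combination formed the second pattern. CDKN1A, which encodes the cyclin-dependent kinase inhibitor p21 (chr6:36644237-36655114), had 134, 159.7 and 162 CPM in the untreated libraries, 193, 196 and 199 with CKI, 439, 447 and 444 with 5-FU and 174, 171 and 175 with both. The 5-FU libraries were above all others, and the combination was below the CKI libraries and just above the untreated ones. Multiplied fold changes would have given 572 CPM, and the interaction was -1.72 (SE 0.097, edgeR's quasi-likelihood test, adjusted p = 4.6e-07). CDCA5, also called sororin, which holds sister chromatids together (chr11:64833772-64851636), had 127, 139.8 and 136 CPM untreated, 123, 123 and 119 with CKI, 361, 365 and 372 with 5-FU and 124, 121 and 122 with both. Its combination libraries overlapped those of CKI, with an interaction of -1.44 (SE 0.074, adjusted p = 2.6e-07).

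STC1, a secreted glycoprotein hormone (chr8:23699442-23712319), rose with 5-FU from 97 ± 2.54 to 398 ± 10.1 CPM and stood at 174 ± 3.38 CPM with both drugs, against 112 ± 1.92 with CKI (SD, n = 3). AVPI1, a gene induced by vasopressin, had 20.3 ± 1.45, 23.8 ± 0.839, 56.2 ± 1.01 and 19.1 ± 0.575 CPM in untreated, CKI, 5-FU and combination libraries. SDC4, a heparan sulfate proteoglycan of focal adhesions, had 179 ± 2.33, 213 ± 3.68, 379 ± 11.5 and 216 ± 0.374 CPM. Of these 3, STC1 kept part of its 5-FU rise in the combination, while AVPI1 overlapped untreated and SDC4 overlapped CKI. TAF13, a subunit of the general transcription factor TFIID, had 50.6 ± 2.84, 80.4 ± 3.06, 121 ± 2.01 and 80.4 ± 2.12 CPM, so that the combination overlapped CKI alone. COL15A1, a basement membrane collagen, had 2.37 ± 0.198, 4.27 ± 0.619, 12.4 ± 0.675 and 3.92 ± 0.237 CPM and an interaction of -2.51. MIR663AHG and MIR3648-2 also met the rule, with interactions of -2.67 and -2.68, but their untreated libraries read 7.47, 60.1 and 56.7 CPM and 1.91, 40.2 and 35.3 CPM, with replicate 1 far below the rest. Reads of both can also come from near-identical copies, and the call of MIR3648-2 was lost under 7 of 24 alternatives.

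**Figure D3:**
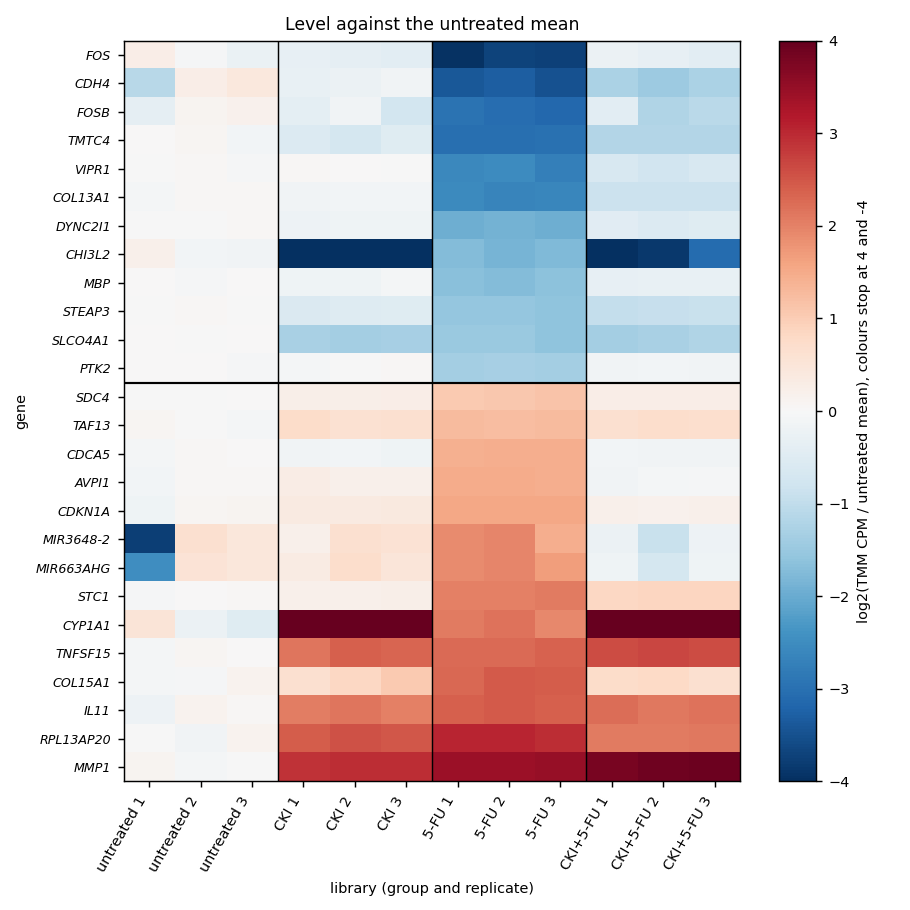
Log2 ratio of each library's TMM-normalized CPM to the mean of the untreated group for genes among those with the smallest adjusted p-values or the largest interactions, with positive interactions above the horizontal line and negative ones below it. Columns are the 12 libraries in 4 groups, and colours stop at 4 and -4. Above the line the 5-FU libraries are blue in every row, and the combination is clearly paler than 5-FU alone except in CHI3L2 and SLCO4A1, which are blue with CKI too.

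Genes of DNA replication, mitosis and nucleotide supply were split between the patterns. The DNA helicase genes MCM3 and MCM6 were called positive and the licensing factor CDT1 negative, 3 of 25 genes tested (12%), with a median interaction of -0.01. MCM3 had 454, 421 and 408 CPM untreated, 245, 243 and 248 with CKI, 222, 229 and 220.0 with 5-FU and 269, 281 and 277 with both. All treated libraries were below untreated and the combination was above both single drugs, with an interaction of 1.1 (SE 0.076, edgeR's quasi-likelihood test, adjusted p = 3.0e-06), and MCM6 had 108 ± 5.38, 60.7 ± 3.08, 46.1 ± 1.97 and 63.1 ± 1.56 CPM and 1.28. CDT1 had 49.7 ± 14.9, 38 ± 0.532, 108 ± 2.61 and 38.3 ± 2.38 CPM and an interaction of -1.11, a call that was lost without untreated replicate 1 and with offsets for GC content and length. Other members that were not called were MCM2 (-0.31), MCM4 (-0.1) and MCM5 (0.71). Among G1 cyclins, CDKs and their inhibitors 3 of 24 genes were called, all negative (12.5%): CDKN1A, the atypical E2F repressor E2F8 and the phosphatase CDC25A. E2F8 fell with CKI and rose with 5-FU, at 23.8 ± 1.89 CPM untreated, 11.2 ± 1.26 with CKI, 60.6 ± 1.24 with 5-FU and 13.4 ± 0.821 with both, and CDC25A had 34.7 ± 3.00, 35.1 ± 1.49, 90.3 ± 5.34 and 40.7 ± 2.1 CPM.

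DPYD, the enzyme that degrades 5-FU, was the 1 positive gene among 36 of nucleotide and fluoropyrimidine metabolism. It had 100.1, 83.7 and 84.5 CPM in the untreated libraries, 57.7, 52.6 and 54.8 with CKI, 43.8, 43.4 and 43.5 with 5-FU and 58.6, 62.2 and 58.6 with both, so that all treated libraries were below untreated and the combination lay just above CKI alone. Its interaction was 1.16 (SE 0.10, edgeR's quasi-likelihood test, adjusted p = 1.7e-05). The 3 negative genes were CDA, cytidine deaminase (-1.54), TK1, the cytosolic thymidine kinase (-1.24), and RRM2, the regulated subunit of ribonucleotide reductase (-1.15), so that 11.1% of the list was called. RRM2 had 280.4, 209 and 208 CPM untreated, 189, 182 and 183 with CKI, 549, 555 and 578 with 5-FU and 198, 211 and 191 with both. Its 5-FU libraries stood above all others, and the combination overlapped untreated. TK1 had 229 ± 44.6, 219 ± 4.02, 319 ± 15.4 and 129 ± 7.69 CPM, and CDA, which both drugs raised by themselves, had 26.7 ± 6.08, 63 ± 3.98, 54.3 ± 2.69 and 44.1 ± 1.37 CPM. TYMS, the enzyme that 5-FU inhibits, was not called for the interaction: it had 125 ± 23, 60.7 ± 1.63, 165 ± 7.15 and 66.3 ± 1.57 CPM and a value of -0.28 (SE 0.14, adjusted p = 0.16).

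Checkpoint, mitosis and polymerase lists had shares of calls near or under the 6.84% of all genes. Of 41 damage checkpoint and homologous recombination genes, CLSPN and XRCC3 were called, both negative (4.88%), with a median of -0.28. CLSPN, the adaptor that activates the kinase CHEK1, had 43 ± 9.37, 41.5 ± 2.63, 147 ± 7.36 and 59.5 ± 1.36 CPM and an interaction of -1.25. Of 42 mitosis and spindle genes, the transcription factor FOXM1 (-1.1) and INCENP (-1.06), a subunit of the chromosomal passenger complex, were called negative (4.76%). By the adjusted p-value alone 15 of the 42 mitosis genes were negative and none positive, beside 14.3% and 17.1% of all genes. The median over the list was -0.31. The 1 call among 32 replicative polymerase and fork genes (3.12%) was POLA1, the catalytic subunit of DNA polymerase alpha, at 1.01. The calls of XRCC3, FOXM1, INCENP and POLA1 were each lost under 1 or more alternatives. Of 28 p53 target genes, CDKN1A, GDF15 and BTG2 were called negative and PLK2 positive (14.3%), and the calls of BTG2 and PLK2 were each lost under 11 of 24 alternatives. GDF15, a stress-induced cytokine, had 32.8, 49 and 44.7 CPM untreated, 36.1, 38.2 and 38.5 with CKI, 64.2, 69.1 and 61.5 with 5-FU and 15.5, 17.7 and 21.7 with both. Its combination libraries lay below those of all other groups, and the interaction was -1.66 (SE 0.20, adjusted p = 1.1e-04).

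Genes that both drugs raised and that rose little further in the combination formed the third pattern. MMP1, the interstitial collagenase (chr11:102660132-102668891), had 30.3, 26.6 and 27.7 CPM untreated, 210.3, 218 and 219.5 with CKI, 300.1, 299.6 and 313 with 5-FU and 391, 422 and 425 with both. The combination was the highest of the 4 groups, at 14.6-fold over untreated, but far below the 2329.6 CPM of multiplied fold changes. The interaction was -2.5 (SE 0.088, edgeR's quasi-likelihood test, adjusted p = 1.5e-08). TNFSF15, a cytokine of the TNF family, had 19.4, 21.5 and 20.8 CPM untreated, 91, 108 and 104 with CKI, 98, 99 and 105 with 5-FU and 126, 132 and 126 with both. CKI and 5-FU raised it by 2.29 and 2.29 (log2), and the combination stood at 2.64. RPL13AP20, a processed pseudogene of a ribosomal protein, had 3.84 ± 0.393, 21.5 ± 0.714, 31 ± 0.904 and 16.3 ± 0.169 CPM and -3.41, and its reads cannot be told apart with certainty from those of its parent gene. Of 19 matrix metalloproteinase and inhibitor genes, MMP1 and MMP3 were negative and MMP11 positive (15.8%). The mean of MMP3 was at most 0.911 CPM, with 5-FU, and lower in the other groups, so it may have passed the filter through 5-FU alone. The calls of MMP3 and MMP11 were lost under 1 and 5 of 23 alternatives.

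Among 21 genes of the interleukin 1 family, the IL-6 family and STAT3, 7 were called, all negative (33.3%), and the median interaction over the 21 was -0.40 against 0.02 over all genes. IL11, an IL-6 family cytokine (chr19:55875750-55881831), had 51.8, 64.9 and 60.4 CPM untreated, 243, 258 and 239.6 with CKI, 313, 324 and 312 with 5-FU and 278, 256 and 268 with both. All treated groups were above untreated, and the combination overlapped CKI alone and lay below 5-FU alone. Its interaction was -2.3 (SE 0.11, edgeR's quasi-likelihood test, adjusted p = 1.6e-07). IL1A, which encodes interleukin 1 alpha, had 2.38, 3.45 and 3.14 CPM untreated, 10.7, 12.9 and 11.5 with CKI, 30.7, 32.6 and 38.1 with 5-FU and 28, 31.4 and 28.3 with both. Here the combination overlapped 5-FU and stayed above CKI, with an interaction of -2.17. IL1B, interleukin 1 beta, had 10.8, 15.6 and 15 CPM untreated, 23.3, 23 and 25.4 with CKI, 44.6, 47.3 and 50.7 with 5-FU and 32.4, 31.7 and 35.9 with both. Its combination libraries lay between those of CKI and of 5-FU, and the interaction was -1.3 (SE 0.17, adjusted p = 1.7e-04).

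IL24 differed from the others in that the combination exceeded both drugs. It had means of 1.98 ± 0.483 CPM untreated, 23.7 ± 1.31 with CKI, 24.6 ± 1.38 with 5-FU and 60.9 ± 3.35 with both, against 294 CPM for multiplied fold changes, and an interaction of -2.27. IL18 had 13.4 ± 1.86, 26.4 ± 0.374, 23.1 ± 0.623 and 16.4 ± 0.201 CPM, so that the combination was below both drugs, and IL6R, the receptor chain for IL-6, had 0.359 ± 0.135, 0.838 ± 0.196, 3.69 ± 0.886 and 0.942 ± 0.177 CPM. The 7 negative calls were the same number without untreated replicate 1. Of members that were not called, IL1R1 had an interaction of 0.37 and IL1RAP of 0.33.

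Of 14 chemokine and 23 NF-kappa-B genes tested, 6 and 9 rose with 5-FU alone, beside 6.01% of all genes tested, and 4 and 3 rose with 5-FU added to CKI, beside 1.26%. The difference between these counts was not tested. Of the 14 chemokine and colony-stimulating factor genes, 4 were called for the interaction, all negative (28.6%), with a median of -0.56. CXCL8, the neutrophil chemokine interleukin 8, had 96.7, 122 and 115 CPM untreated, 86.2, 82.3 and 81.3 with CKI, 648, 678 and 711 with 5-FU and 201, 206 and 194 with both. The combination lay above untreated and CKI and below 5-FU, with an interaction of -1.34 (SE 0.11, edgeR's quasi-likelihood test, adjusted p = 9.6e-06). CSF3, granulocyte colony-stimulating factor, had 5.03, 6.53 and 4.54 CPM untreated, 1.53, 2.21 and 1.82 with CKI, 48.8, 54 and 50.4 with 5-FU and 4.09, 3.44 and 4.22 with both. 5-FU raised it 9.47-fold alone and 2.1-fold in the presence of CKI, and the combination was below untreated. The other 2 calls were CCL26 (-1.75) and CXCL16 (-1.01), lost under 1 and 9 of 24 alternatives. Among members that were not called, CXCL2 had an interaction of 0.98, in the opposite direction, and CXCL1 one of -0.25.

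Of the 23 NF-kappa-B subunit and feedback genes, TRAF1 and TNFAIP3 were negative and VCAM1 positive (13.0%). TNFAIP3, the deubiquitinase A20 that limits NF-kappa-B signalling, had 10.6, 14.7 and 16.1 CPM untreated, 10.7, 9.78 and 9.06 with CKI, 66.6, 62.5 and 60.4 with 5-FU and 19.5, 20.3 and 16.6 with both, and an interaction of -1.26. TRAF1 had 22.5 ± 1.2, 22.4 ± 1.48, 124 ± 0.98 and 52.9 ± 3.45 CPM. VCAM1, an adhesion molecule for leukocytes, fell with each drug, at 58.9 ± 4.5, 10.3 ± 1.27, 18.3 ± 1.74 and 10.2 ± 0.962 CPM, and the combination overlapped CKI alone, which gave a positive interaction of 1.67. By the adjusted p-value alone 11 of the 23 were negative and 1 positive, beside 14.3% and 17.1% of all genes.

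Prostaglandin synthesis and receptor genes had 6 calls among 15 (40%), 5 negative and 1 positive. PTGS2, the inducible cyclooxygenase, had 8.58, 7.28 and 7.08 CPM untreated, 5.56, 5.55 and 5.37 with CKI, 33, 34.6 and 34.4 with 5-FU and 9.66, 11 and 10.7 with both. PTGES, the synthase of prostaglandin E2, had 20.9, 25.4 and 26.4 CPM untreated, 18, 17.4 and 18.5 with CKI, 64, 57.3 and 61.6 with 5-FU and 16.3, 15.6 and 18 with both. For both genes 5-FU alone stood above all other groups, and with CKI present PTGES overlapped CKI alone. PTGER4, a receptor for prostaglandin E2, had 9.37 ± 1.39, 7.88 ± 0.656, 16.8 ± 1.49 and 5.93 ± 0.635 CPM, and the interactions of PTGS2, PTGES and PTGER4 were -1.23, -1.44 and -1.25. PTGS1 (-2.39) and PTGER1 (-2.15) were also negative but stayed under 2 CPM in every group mean. PLA2G2A, a secreted phospholipase that both drugs lowered, was positive at 1.67.

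**Figure D4:**
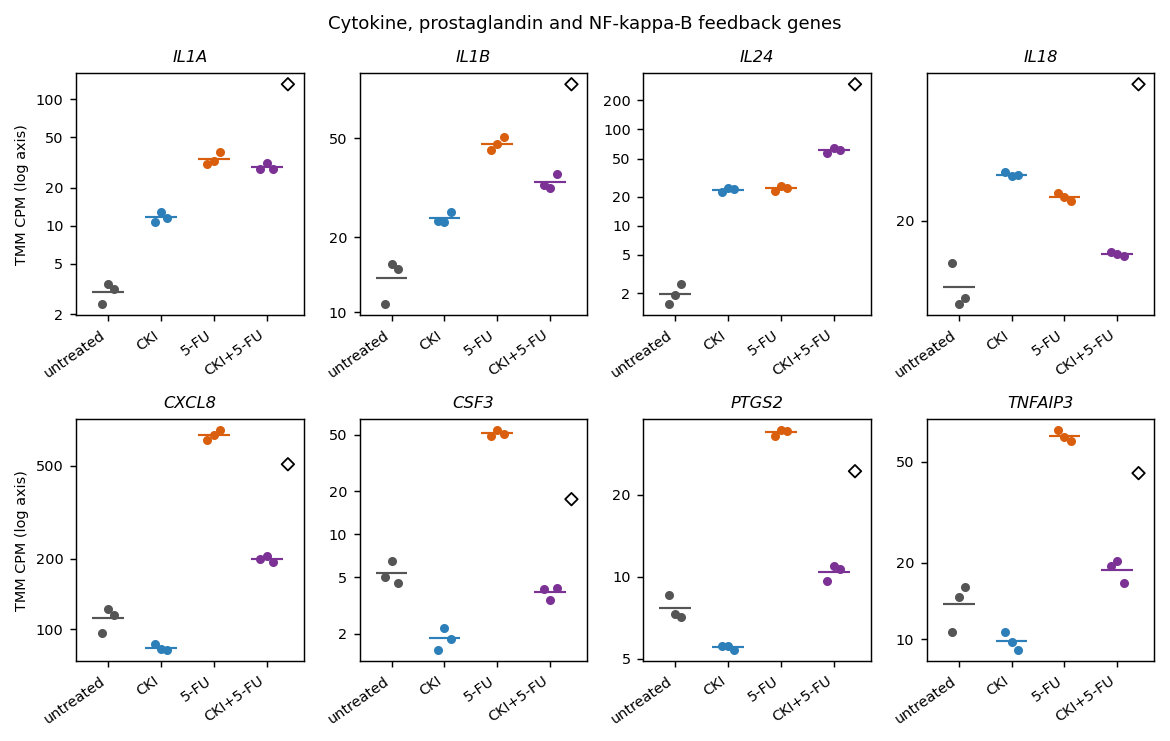
TMM-normalized CPM on a log axis in the 12 libraries (points) and group means (lines) for 8 cytokine, prostaglandin and NF-kappa-B feedback genes, with the level of multiplied fold changes as an open diamond. In all 8 the combination lies below the diamond. In CXCL8, CSF3, PTGS2 and TNFAIP3 only 5-FU raised the gene, and in IL1A and IL24 both drugs did.

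The promoters of 4 of these negative genes are shown because they hold the AP-1 site, the sequence bound by FOS and JUN proteins, and that of EGR1 because it holds CArG boxes, the sites of serum response factor. Each sequence is the 250 bases before the annotated transcription start in RefSeq (GRCh38.p14), on the strand of the gene, with the motif in capitals. The AP-1 match began 96 bases before the start in IL11 (chr19:55370464-55370713, minus strand), 120 in TNFSF15 (chr9:114792531-114792780, minus), 137 in CXCL8 (chr4:73740319-73740568, plus) and 12 in IL1A (chr2:112784494-112784743, minus). The CArG boxes of EGR1 (chr5:138465229-138465478, plus) began 105 and 83 bases before the start.
IL11: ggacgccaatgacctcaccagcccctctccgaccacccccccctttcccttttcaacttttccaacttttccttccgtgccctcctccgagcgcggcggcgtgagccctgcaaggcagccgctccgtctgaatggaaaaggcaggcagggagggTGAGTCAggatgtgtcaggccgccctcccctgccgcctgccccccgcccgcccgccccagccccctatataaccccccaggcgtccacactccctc
TNFSF15: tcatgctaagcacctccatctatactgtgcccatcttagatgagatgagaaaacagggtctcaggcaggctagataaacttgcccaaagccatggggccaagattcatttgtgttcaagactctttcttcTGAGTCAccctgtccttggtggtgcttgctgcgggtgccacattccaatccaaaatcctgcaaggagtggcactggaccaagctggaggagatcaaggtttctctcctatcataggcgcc
CXCL8: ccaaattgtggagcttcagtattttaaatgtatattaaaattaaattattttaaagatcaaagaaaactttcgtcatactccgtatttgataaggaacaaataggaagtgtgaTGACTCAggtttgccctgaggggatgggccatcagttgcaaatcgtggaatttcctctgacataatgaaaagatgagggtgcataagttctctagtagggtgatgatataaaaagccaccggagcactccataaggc
IL1A: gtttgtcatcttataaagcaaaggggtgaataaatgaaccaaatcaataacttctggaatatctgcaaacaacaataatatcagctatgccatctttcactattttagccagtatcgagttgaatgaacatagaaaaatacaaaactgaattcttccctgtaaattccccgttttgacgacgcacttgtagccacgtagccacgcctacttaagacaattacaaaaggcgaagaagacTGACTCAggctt
EGR1: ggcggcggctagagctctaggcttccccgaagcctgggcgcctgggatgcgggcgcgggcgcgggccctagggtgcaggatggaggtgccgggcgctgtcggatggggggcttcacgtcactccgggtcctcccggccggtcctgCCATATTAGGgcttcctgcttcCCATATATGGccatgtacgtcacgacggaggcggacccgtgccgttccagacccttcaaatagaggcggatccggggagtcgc

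Promoters of this kind were matched for 11235 of the tested genes. The AP-1 letters TGANTCA, searched on both strands, were present in 463 of them (4.12%), in 43 of 392 promoters of genes with a negative interaction (11.0%) and in 17 of 343 promoters of genes with a positive one (4.96%). CArG boxes were present in 1.01% of all matched promoters, in 1.28% of the negative and in 1.75% of the positive genes. The cyclic AMP response element TGACGTCA, searched on both strands, was present in 2.79%, 2.3% and 2.33% in the same order. TATAAA was present in 5.81% of all, 10.5% of the negative and 10.8% of the positive genes. The NF-kappa-B site was present in 11.7%, 13.8% and 11.1%, the hypoxia response core ACGTG in 23.1%, 18.1% and 25.1%, the xenobiotic response element TNGCGTG in 5.92%, 3.32% and 6.12%, and the E-box CACGTG, which contains the hypoxia core, in 8.59%, 5.61% and 7.58%. The matches describe letters in a window and were not tested.

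Hypoxia and glycolysis genes had positive calls only. Of 41 tested, 7 were called, all positive (17.1%, beside 3.04% of all genes), and the median interaction was 0.41. By the adjusted p-value alone 23 were positive and 3 negative, beside 17.1% and 14.3% of all genes. The list's median 5-FU difference was -0.73 without CKI and -0.35 with it. PDK1, the kinase that closes pyruvate entry into mitochondria, had 33.2, 28.4 and 27.2 CPM untreated, 30.5, 30.4 and 27.1 with CKI, 8.61, 9.62 and 8.91 with 5-FU and 21.9, 21.6 and 21.7 with both. Its 5-FU libraries were the lowest, and the interaction was 1.28 (SE 0.13, edgeR's quasi-likelihood test, adjusted p = 2.9e-05). VEGFA, the angiogenic growth factor, had 540.1, 666 and 694 CPM untreated, 517, 515 and 513 with CKI, 337, 342 and 312 with 5-FU and 579.7, 551 and 582 with both. The combination overlapped untreated, with an interaction of 1.09 (SE 0.12). EGLN3, the oxygen sensor PHD3, had 20.5 ± 3.71, 13.5 ± 0.928, 4.45 ± 0.49 and 8.57 ± 0.527 CPM, and LDHA, lactate dehydrogenase A, had 3023 ± 506, 1784 ± 24.3, 1206 ± 39.6 and 1491 ± 39.1 CPM, so that in both the combination remained called against untreated. CA12, BNIP3 and LDHA lay near the threshold, at 1.00, 1.09 and 1.07, and each lost its call under 1 or more alternatives. Without untreated replicate 1 the list had 5 positive calls and a median of 0.37, and with offsets for GC content and length 4 and 0.39. The hexokinase genes HK1 and HK2 and the isomerase GPI were not called, at -0.36, -0.08 and -0.23.

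Collagen chains and crosslinking enzymes had 6 positive calls and 1 negative among 31 (22.6%), with a median of 0.25. Besides COL13A1, these were COL6A3, COL5A1, COL4A5 and the lysyl oxidases LOXL1 and LOXL4. COL6A3 had 110.2, 139 and 134 CPM untreated, 81.4, 83.7 and 87.4 with CKI, 28.2, 29.3 and 30.3 with 5-FU and 58.5, 54.9 and 53.5 with both. The 5-FU libraries were lowest and the combination lay between them and CKI, with an interaction of 1.53 (SE 0.12, edgeR's quasi-likelihood test, adjusted p = 5.1e-06). LOXL4 fell with each drug, at 90.6 ± 10.4, 39.3 ± 1.1, 19.6 ± 1.44 and 19.9 ± 0.375 CPM, and the combination overlapped 5-FU alone. The negative gene, COL1A1, a chain of type I collagen, had 14.8 ± 5.75, 28.4 ± 2.03, 19.7 ± 3.48 and 14.6 ± 2.22 CPM. COL4A5 and COL5A1 lost their calls under 8 and 2 of 24 alternatives. Integrin and laminin genes had 2 positive and 2 negative calls among 25 (16%), with ITGA6, a laminin receptor subunit, positive at 560.1 ± 14.3, 319 ± 12.3, 243 ± 5.2 and 282 ± 9.18 CPM.

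Growth factor signalling genes were called in both directions. Of 37 genes of ID proteins, BMP and TGF-beta signalling, 3 were positive and 5 negative (21.6%). SMURF2, a ubiquitin ligase for SMAD proteins, had 316 ± 16.8, 343 ± 6.57, 126 ± 4.53 and 291 ± 3.15 CPM, and NOG, a secreted BMP antagonist, had 60.2 ± 6.74, 85.7 ± 0.597, 22.7 ± 1.71 and 67.9 ± 4.59 CPM, both with the lowest level under 5-FU alone. TGFBR3, a TGF-beta coreceptor, rose with each drug to nearly the level of the combination, at 7.49 ± 0.629, 19.4 ± 0.333, 16.9 ± 0.294 and 17 ± 1.2 CPM. ID2, ID3 and ID4, which inhibit basic helix-loop-helix factors, were negative (-2.25, -1.23 and -1.33), and ID1 was not called (0.81). The means of ID2 were at most 1.56 CPM, with 5-FU. SPRY1, an inhibitor of receptor kinase signalling, had 62.8 ± 2.26, 58.1 ± 1.56, 20.5 ± 0.957 and 47.4 ± 3.27 CPM and was, with NRG2, 1 of 2 positive calls among 21 EGFR family and feedback genes (9.52%), the call of NRG2 being lost under 11 of 23 alternatives with the replicate block among them, while EGFR itself was not called at 0.81. Of 26 YAP and TEAD target genes, CCN2 and NT5E were positive and NUAK2 negative (11.5%). CCN2, connective tissue growth factor, rose with CKI and fell with 5-FU, at 528, 541 and 534 CPM untreated, 1188, 1201 and 1171 with CKI, 209, 198 and 203 with 5-FU and 911, 924 and 874 with both. Its interaction of 1.00 lay at the threshold, and the call was lost in 12 of 24 alternatives.

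Of the stress response lists 4 are described here, with shares of calls from 3.7% to 16% beside 6.84% of all genes. In the cytosolic heat shock response 4 of 25 genes were called, all negative (16%): HSPB8 (-1.96), HSPA6 (-2.98), HSPA1A (-1.38) and DNAJB4 (-1.04). HSPB8, a small heat shock protein, had 6.63 ± 0.772, 10.4 ± 0.706, 22.1 ± 1.81 and 8.97 ± 0.126 CPM. HSPA1A and its near-identical copy HSPA1B, between which reads are uncertain, had means of 21.5 ± 2.59, 29.6 ± 3.18, 23.3 ± 0.578 and 12.3 ± 1.02 CPM and of 78.1 ± 0.928, 81.5 ± 3.24, 80.5 ± 3.11 and 46.4 ± 2.02 CPM, lowest in the combination in both. Among 29 NRF2 genes ABCC3 was positive and OSGIN1 and AKR1B10 negative (10.3%), and the call of AKR1B10 was lost under 10 of 23 alternatives with the replicate block among them. Among 38 ATF4 genes VEGFA was positive and GDF15 and SLC3A2 negative (7.89%). By the adjusted p-value alone 14 were positive and 6 negative, beside 17.1% and 14.3% of all genes. The stress transcription factors ATF3 and DDIT3 rose with 5-FU with and without CKI: ATF3 had 17 ± 1.29, 15.8 ± 0.75, 42.9 ± 0.432 and 34.1 ± 0.172 CPM, and DDIT3 had 9.96 ± 1.84, 10.9 ± 1.23, 38.3 ± 1.22 and 40.2 ± 2.4 CPM and an interaction of -0.06 (SE 0.17, edgeR's quasi-likelihood test, adjusted p = 0.81). CRELD1 was the 1 positive call among 27 genes of the unfolded protein response (3.7%).

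Of 2 metallothionein genes called positive among 7 (28.6%), MT2A had 1155 ± 122, 1589.7 ± 66.7, 492 ± 10.1 and 1386 ± 42.8 CPM and MT1E 215 ± 88.3, 269.6 ± 14.6, 42.5 ± 0.728 and 185 ± 11 CPM, with the uncertainty of near-identical copies. Without untreated replicate 1 MT2A lost its call, and the list's median went from 0.29 to -0.04. Of 44 interferon-stimulated genes 6 were called, all negative (13.6%), and IRF7, a regulator of interferon genes, had 25.6 ± 7.54, 29.8 ± 1.25, 79.7 ± 7.61 and 34.9 ± 4.7 CPM with an interaction of -1.41. IFI6 had -1.1, and the calls of RSAD2, ISG20, USP18 and IRF9 were each lost under 3 or more alternatives. TNFSF10, the death ligand TRAIL, was the 1 call among 36 BCL2 family and death receptor genes (2.78%), at 291 ± 69.7, 70.7 ± 2.4, 147 ± 8.7 and 77.5 ± 2.35 CPM and 1.12. Its call was lost without untreated replicate 1 and with offsets for GC content and length.

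CYP1A1, the drug-metabolizing target of the aryl hydrocarbon receptor, rose with each drug and far more with CKI. It had 1.8, 1.07 and 0.898 CPM untreated, 95, 96.1 and 100.3 with CKI, 5.28, 5.68 and 4.75 with 5-FU and 64.5, 67.6 and 68 with both. The combination was far above 5-FU and untreated but below CKI alone, with an interaction of -2.61 (SE 0.20, edgeR's quasi-likelihood test, adjusted p = 5.0e-06). CYP1B1, a target of the same receptor, was not called for the interaction: it had 98.7 ± 15, 281 ± 4.56, 98.1 ± 2.93 and 320.3 ± 14.9 CPM and an interaction of 0.2 (SE 0.12, adjusted p = 0.24). Of 12 genes of this battery CYP1A1 and LRAT were called, both negative (16.7%). LRAT had means of at most 1.77 CPM, with 5-FU, and its call was lost under 8 of 24 alternatives. Of the other genes assayed singly in the study, CCND1 had an interaction of 0.65 (SE 0.16, adjusted p = 0.009), under the fold threshold, and the reference gene RPS13 one of 0.42 (SE 0.18, adjusted p = 0.092).

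Genes that both drugs lowered formed the fourth pattern. SLCO4A1, an organic anion transporter (chr20:61273855-61317137), had 234, 228 and 232 CPM untreated, 93.7, 89.6 and 92.2 with CKI, 83.3, 83.6 and 76.2 with 5-FU and 91, 94.9 and 100.1 with both. All treated libraries lay within a narrow band well below untreated, and multiplied fold changes would have given 32.2 CPM. The interaction was 1.57 (SE 0.083, edgeR's quasi-likelihood test, adjusted p = 2.7e-07). CHI3L2, a secreted chitinase-like protein, had 23, 18.4 and 18.2 CPM untreated, 0.919, 1.27 and 1.16 with CKI, 5.93, 5.49 and 5.86 with 5-FU and 0.951, 1.36 and 2.33 with both. The combination overlapped CKI alone, at an interaction of 2.24 (SE 0.35, adjusted p = 5.7e-04).

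Histone genes had the highest median interaction of all lists. Of 15 replication-dependent histone genes tested, out of 58 written, 6 were positive and 1 negative (46.7%), with a median of 0.99. H1-2, a linker histone, had 40.5, 32.4 and 30.3 CPM untreated, 80.0, 72.6 and 70.4 with CKI, 18.8, 20.6 and 19.2 with 5-FU and 98.8, 104 and 107 with both. The combination was above every other library although 5-FU alone was the lowest, with an interaction of 1.29 (SE 0.14, edgeR's quasi-likelihood test, adjusted p = 5.7e-05). H2AC6 had 17.8 ± 7.81, 14.3 ± 0.347, 20.3 ± 0.428 and 35.2 ± 2.04 CPM, and H1-4 had 2.64 ± 0.544, 2.78 ± 0.453, 1.22 ± 0.0947 and 4.11 ± 0.799 CPM. Without untreated replicate 1 the list had 3 positive calls and 1 negative, and a median of 0.60. The positive calls of H4C8 and H2AC20 were lost under 13 and 12 of 24 alternatives, and the negative call, H2BC15, under 13 of 24. H2AC6 lost its call without untreated replicate 1. Most messages of these genes lack a poly(A) tail, and near-identical copies share reads.

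H1-2 was also 1 of the 5 genes, named here after their values were seen, in which the combination was more than additive in the direction of a single-drug call. In all 5 that call was for CKI. NGFR, a neurotrophin receptor, had 31.4, 55 and 55.8 CPM untreated, 18.5, 19.8 and 18 with CKI, 50.5, 46.4 and 45.4 with 5-FU and 9.09, 8.45 and 9.6 with both. The 5-FU libraries of NGFR overlapped untreated, and the combination was below CKI alone (interaction -1.05, SE 0.25, edgeR's quasi-likelihood test, adjusted p = 0.0075). LGALS9, a galectin, had 4.08, 4.57 and 5.24 CPM untreated, 1.22, 0.846 and 1.37 with CKI, 9.08, 9.08 and 9.39 with 5-FU and 0.571, 0.633 and 0.728 with both, so that its highest group was 5-FU alone and its lowest the combination. LRG1 (-1.62) and GDPD1 (1.15) were below 5 CPM untreated.

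**Figure D5:**
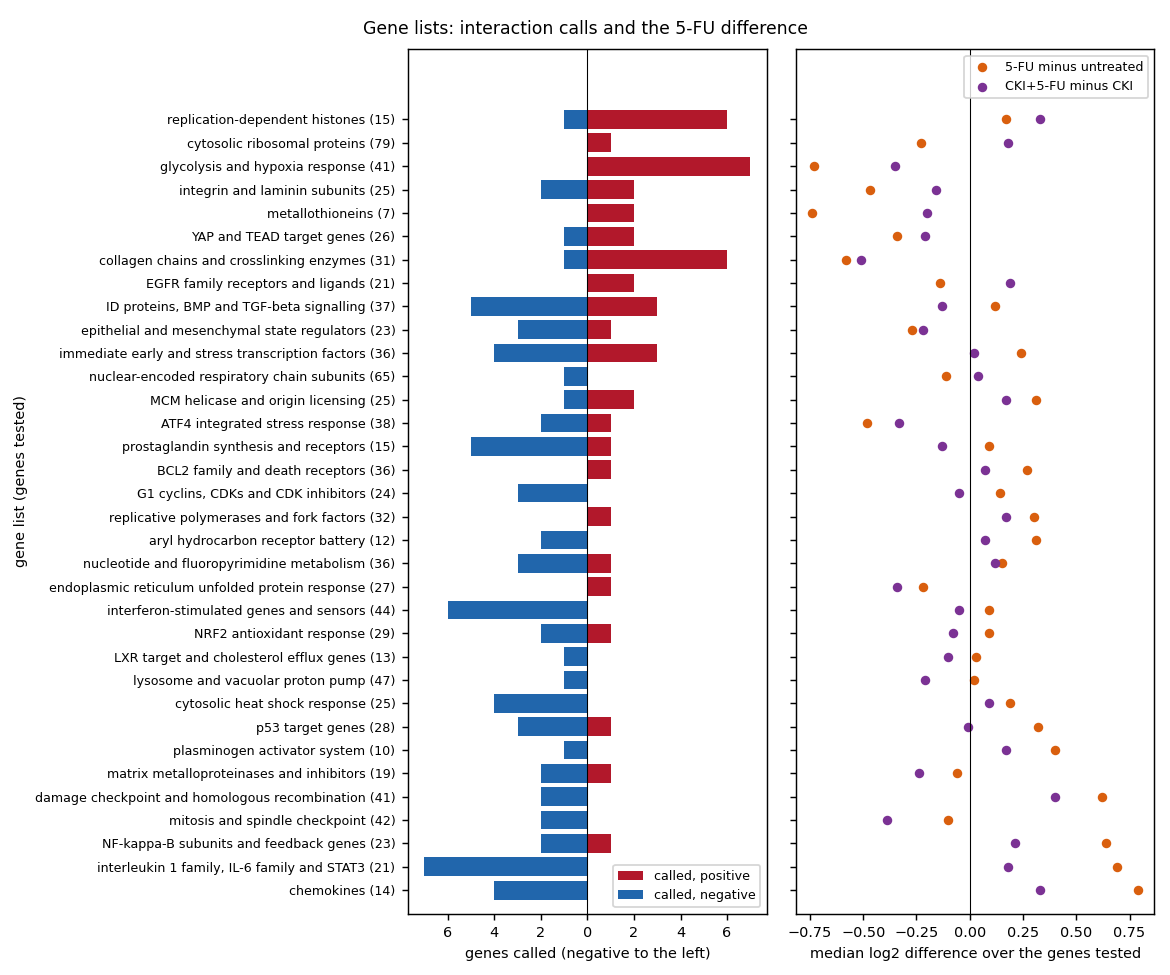
Left, the number of genes called for the interaction in each list with 1 or more calls, the marker lists left out. Positive calls are red to the right and negative ones blue to the left, with the genes tested in brackets. Right, the median log2 difference of 5-FU over the genes tested, without CKI (orange) and with CKI (purple). Lists are ordered by their median interaction, from chemokines at the bottom to replication-dependent histones at the top. Of the 36 lists with a call, marker lists not drawn included, 26 had a 5-FU median farther from 0 without CKI than with it.

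Lists without a called gene were not uniform either. None of 21 cholesterol synthesis enzymes was called for the interaction, and their median was -0.31. By the adjusted p-value alone 7 were negative and 1 positive, beside 14.3% and 17.1% of all genes. CKI raised 14 of the 21 by itself, beside 3.76% of all genes tested, with a median difference of 1.16, and their median with 5-FU present was 0.73. HMGCS1, an early enzyme of the pathway, had 56.2 ± 12.7, 142 ± 2.15, 32.2 ± 1.45 and 65.4 ± 4.06 CPM and an interaction of -0.31 (SE 0.17, edgeR's quasi-likelihood test, adjusted p = 0.19). With 5-FU present CKI raised 7 of the 21, HMGCS1 among them, beside 5.26% of all genes. ABCA1, the cholesterol efflux pump, fell with CKI to nearly the same level in both settings, at 120.3 ± 15.5, 13.1 ± 1.02, 109 ± 7.19 and 18 ± 1.93 CPM.

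Of 79 cytosolic ribosomal protein genes 1 was called, RPL34 (1.27%). By the adjusted p-value alone 31 were positive and none negative, beside 17.1% and 14.3% of all genes. The median interaction of the list was 0.42 and became 0.23 without untreated replicate 1. RPL34 had 1142, 596 and 564 CPM in the untreated libraries, with replicate 1 far above the rest, and lost its call without that library. The median CKI difference of these genes was -0.42 without 5-FU and -0.03 with it. Of 51 ribosome biogenesis genes none was called, with 12 positive and 2 negative by the adjusted p-value alone, beside the same 17.1% and 14.3%. The remaining lists had 1 call each or few: APOE among 13 LXR target genes (7.69%), SERPINB2 among 10 of the plasminogen system (10.0%), GPNMB among 47 lysosome genes (2.13%) and NDUFV2 among 65 respiratory chain subunits (1.54%) were negative, and among 23 regulators of epithelial and mesenchymal state PRRX1 was positive and CDH2, CLDN1 and CLDN3 negative (17.4%). Means of PRRX1 were at most 1.83 CPM, in untreated cells. The calls of APOE and NDUFV2 were lost under 2 and 3 of 24 alternatives, and those of CDH2 and SERPINB2 under 4 and 8 of 23. No gene was called among 16 of sterol uptake, 20 of fatty acid synthesis and 18 of HLA class I. Without untreated replicate 1 the counts of called genes, positive and negative, became 8 and 1 for collagen, 5 and 0 for glycolysis and hypoxia, 3 and 1 for histones, 1 and 0 for metallothioneins, 4 and 3 for integrins, 2 and 3 for metalloproteinases, 3 and 2 for ATF4, 1 and 3 for NRF2, 3 and 1 for YAP and TEAD targets, 4 and 4 for ID and BMP genes, 3 and 3 for immediate early genes, 1 and 6 for prostaglandin genes and 1 and 4 for epithelial and mesenchymal regulators. They became 0 and 8 for interferon-stimulated genes, 0 and 4 for G1 cyclins, 0 and 3 for chemokines, 0 and 3 for p53 targets, 0 and 1 for cholesterol synthesis and for checkpoint genes, and 2 and 0 for MCM and licensing genes. No gene was then called among mitosis, polymerase, plasminogen, BCL2 family and ribosomal protein genes, and the counts of the other lists did not change. Over all 41 lists, 118 of 1113 distinct genes were called (10.6%).

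Of the 19 A431 keratinocyte markers 10 passed the filter for enough reads, and 4 of these were called negative, namely KRT5, KRT17, TRIM29 and SFN (40%). KRT17 read at most 0.499 CPM, without TMM factors, in every library outside the 5-FU group. Thus the 5-FU libraries carried it through the filter, which by itself favours a negative interaction. The summed level of that marker list was 302 to 395 CPM untreated, 314 to 331 with CKI, 370 to 396 with 5-FU and 211 to 219 with both. SFN, which encodes 14-3-3 sigma, had 231 ± 58.3, 196 ± 8.32, 201 ± 6.62 and 80.9 ± 4.32 CPM and was lower in the combination than in any other group. On the scale of CPM without TMM factors, KRT5 read 4.11, 0.85 and 1.25 in the 5-FU libraries and KRT17 read 1.82, 0.85 and 0.948, with replicate 1 the highest in each. In that replicate KRT14, KRT6A and KRT6B read 2.39, 2.01 and 0.909 CPM against at most 0.45 in the other 5-FU libraries. Without that library the interactions were -2.77 for KRT5 and -2.77 for KRT17, with adjusted p = 0.021 and 0.013 (edgeR's quasi-likelihood test). The call of KRT5 was lost without CKI replicate 2 or 3 or untreated replicate 2 or 3, and that of SFN without untreated replicate 1 and with offsets for GC content and length. The part of A431 RNA in these values was not tested.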

How the data were processed

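RNA was measured in 27 libraries of 2 cell lines, and 12 MDA-MB-231 libraries in 4 labelled groups were used here. The deposited table holds unnormalized read counts by the authors, 1 row per Entrez gene. Per the labels the libraries were unstranded and paired-end, and per the submitters' processing notes reads were trimmed with Trim Galore 0.3.7 and aligned with STAR 2.5.3a to hg19. The counting tool and gene annotation are not given in the sources used here. All count columns were mapped to samples. Totals per library, from 19871048 to 22809339 counts, set the counting precision.

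Genes were filtered with filterByExpr in edgeR 4.0.16 (R 4.3.3), which kept 13999, scaled by TMM factors and fitted with 4 group means over the 12 libraries alone. The quasi-likelihood test gave the interaction and 5 pairwise differences, with Benjamini-Hochberg adjustment over all genes tested. Levels are TMM-normalized CPM with SD over 3 libraries. The labels number replicates and the series describes them as biological, but nothing states which cultures they came from, so p-values measure the spread between these libraries. The test was run on simulated counts with known interactions. These had no single-drug differences and no outlying library, so the run does not bear on either.

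Named were the 10 genes with the smallest adjusted p-value in each direction, the 5 with the largest interaction in each direction at a mean of at least 5 CPM, called members of 41 gene lists (at most 6 per direction), up to 3 uncalled members per list in list order, 4 genes the study assayed singly, and genes whose single-drug calls turned direction. A few genes that met this rule are not reported here. The members and lists were chosen with earlier results of these data known. Of 1285 list entries 1267 matched the table. Gene coordinates are GRCh37, and promoters are RefSeq sequences on GRCh38.p14. Alternatives were other scaling, filters, DESeq2 1.42.0, offsets for GC content and length, all 27 libraries in the fit, the replicate number as a block, the adjusted p-value alone, and leaving out each library.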

Additional observations from a re-analysis of the deposited data

Results flagged for a closer look

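The CKI difference was not the same with and without 5-FU in 958 genes, by the test of the interaction that the report describes. In 12 of them CKI was called in opposite directions in the 2 settings, and in 6 genes 5-FU was called in opposite directions with and without CKI. DHRS2, a short-chain dehydrogenase, was lowered by CKI from 5.05 ± 0.648 to 2.41 ± 0.0796 CPM, and in the presence of 5-FU CKI raised it from 0.97 ± 0.174 to 3.67 ± 0.168 CPM (interaction 2.98, SE 0.22, edgeR's quasi-likelihood test, adjusted p = 3.5e-06). S1PR3, a receptor for sphingosine 1-phosphate, was raised by CKI from 2.15 ± 0.123 to 5.01 ± 0.289 CPM and lowered from 12.4 ± 0.238 to 5.61 ± 0.943 CPM with 5-FU present. MAP2K6, IL6R, MAP1A, PTGS1, PIWIL2, SCEL and LAMA1 had means under 4 CPM in every group. For 5-FU, ZNF114, a zinc finger gene, rose from 4.17 ± 0.837 to 9.34 ± 0.557 CPM without CKI and fell from 12.4 ± 1.15 to 5.53 ± 1.18 CPM with it. SLC25A21-AS1 fell from 0.824 ± 0.215 to 0.398 ± 0.099 CPM and rose from 0.543 ± 0.0795 to 2.11 ± 0.336 CPM, and as an antisense gene in unstranded libraries its reads are uncertain. The other 4, SCEL, IGSF23, NDST3 and STAB2, had means under 2 CPM in every group.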

How the results depend on the processing

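No gene with a call that was followed through the alternatives turned direction, nor did CCND1 or RPS13. The uncalled list members named for their level were not followed through the alternatives, nor were NGFR, LGALS9, LRG1 and GDPD1. Among lists, calls went from 1 positive and 0 negative to 0 and 1 with offsets for BCL2 family genes, from 2 and 1 to 0 and 1 with library size alone for YAP and TEAD targets, from 3 and 4 to 4 and 3 with offsets for immediate early genes, and from 1 and 2 to 3 and 2 without untreated replicate 1 for ATF4 genes. The median of the metallothioneins became -0.04 without untreated replicate 1 and that of the prostaglandin genes 0.11 with offsets. Of 148 named calls 101 passed both thresholds under all 24 alternatives and 47 were lost under 1 or more. Lost calls not marked above include SMURF2 (2 of 24), DNAJB4 (3 of 24), ITGA6 (4 of 24), NT5E (5 of 24) and PTGER1 (7 of 23). By the adjusted p-value alone the interaction gave 4396 genes (2389 positive and 2007 negative), CKI 5066, 5-FU 7992, CKI added to 5-FU 7059, 5-FU added to CKI 5889 and the combination 6957, with 3467 less than additive, 413 called for neither drug and 462 list members. With at least 10 counts in every library, which tests fewer genes, CKI gave 504, CKI added to 5-FU 903, 5-FU added to CKI 340 and the combination 833. The 12 genes with opposite CKI calls became 3 in that setting, and the 6 with opposite 5-FU calls became 1. With offsets for GC content and length and the replicate block they became 16 and 10. The 5 genes more than additive became 3 with those offsets and the block, and 8 with all 27 libraries in the fit. With offsets for GC content and length 5-FU added to CKI gave 345, and 340 with the replicate block too. The cause of that change was not tested. DESeq2 gave 970 interaction genes.

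Leaving out each library in turn gave 850 to 1086 interaction genes (372 to 483 positive, 466 to 634 negative), 801 to 926 for CKI, 1810 to 2133 for 5-FU, 1326 to 1478 for CKI added to 5-FU, 424 to 594 for 5-FU added to CKI and 1184 to 1674 for the combination. The genes less than additive numbered 631 to 827 (99.2% to 99.6%), those called for neither drug 205 to 296 and list members 97 to 122. Same-numbered libraries did not deviate together (mean correlation -0.038 over 18 pairs, from -0.3 to 0.12), and the replicate block gave 911 interaction genes, 92.4% of the 958 among them. Scaling by library size alone moved the median of all genes by 0.13 for 5-FU and 0.143 for the combination (log2), and the interaction then split 355 positive to 624 negative. Depth limits genes under about 1 CPM, for which 3 libraries a group give wide errors.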
